A study of Mus musculus with 8 samples.

Results

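Interferon-stimulated genes were followed across wild-type and polycystic mouse kidney cells given a CREB inhibitor or vehicle. The set holds 46 genes, taken as the rows of the count table whose gene symbol is on a list of known interferon-induced genes, out of 55304 genes in the table. It was divided into 36 genes usually grouped with the type I interferons (interferon-alpha and interferon-beta) and 10 usually grouped with interferon-gamma: Irf1, the 6 interferon-inducible GTPases Gbp2, Gbp3, Gbp7, Igtp, Irgm1 and Iigp1, and the 3 immunoproteasome subunits Psmb8, Psmb9 and Psmb10. RNA came from kidney cells picked out with Dolichos biflorus agglutinin (DBA), a plant lectin that binds collecting duct epithelium, shortly after they were freed from the tissue. The mice were WT or had autosomal dominant polycystic kidney disease (ADPKD). The labels do not name the altered gene, its driver or the strain. Each genotype received DMSO vehicle or 666-15, a compound that blocks the transcription factor CREB. The daily dose was 5 mg/kg. Doses were given on 5 days in a row and then paused for 2 days, from postnatal day 11 and for 3 weeks. Each of the 4 groups has 2 libraries, 8 in all. Nothing in the labels ties the libraries to separate mice, so p-values may in part measure technical spread, although the libraries of 1 group, inhibitor-treated WT, differed in sex.

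Type I interferons bind the receptor chains IFNAR1 and IFNAR2, whose kinases JAK1 and TYK2 activate a complex that holds STAT2 and IRF9. This complex binds the interferon-stimulated response element (ISRE). Interferon-gamma binds IFNGR1 and IFNGR2, and its signal runs through JAK1 and JAK2 to the gamma-activated site (GAS). The induced genes include sensors of viral nucleic acids, enzymes that block viral RNA and protein synthesis, GTPases that attack the vacuoles of intracellular parasites, and proteasome subunits that shape antigen peptides. Many type I genes also respond to interferon-gamma, so the division is one of emphasis.

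Promoter sequences give the context in which these genes are read. RefSeq windows on GRCm38.p6, from 250 bases before to 50 bases after a transcript start, were found for 35 of the 46 genes. The ISRE core, written GAAANNGAAA and searched on both strands, occurred in the windows of 17 of the 35 genes (48.6%), against 3.99% of all 27025 genes with a window. It was found in 12 of 26 type I genes and in 5 of 9 interferon-gamma genes. The GAS core TTCNNNGAA, which reads the same on both strands, occurred in 11 of the 35 genes (31.4%), against 9.55% of all genes. GAS cores were in 7 of 26 type I genes and in 4 of 9 interferon-gamma genes. The CREB element TGACGTCA was in the window of 0 of the 35 genes, against 2.03% of all genes. With a share this low, 0 among 35 genes does not show a lack of the element, and only its full form was searched. With 3 spacer letters in place of 2, the ISRE core was found in 7 of the 35 genes (20%), against 3.17% of all genes. A match describes letters in a window and is no measure of binding. The stretches that follow, read 5′ to 3′ on the strand of the gene, show in capitals an ISRE core of type I genes chosen with their results known. Bst2, Ifih1, Oas1a and Oas3 also held the core and are not shown. The cores shown for Ddx58 and Eif2ak2 begin after the transcript start. Where a window held several cores, only the last is in capitals and others can stand in lower case. This holds for Isg15 (3 cores) and for Ifit1, Ifit3 and Ifit3b (2 each).
Isg15: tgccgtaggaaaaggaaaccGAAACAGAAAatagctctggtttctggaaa
Ifit1: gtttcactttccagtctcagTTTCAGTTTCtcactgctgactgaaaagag
Ifit3: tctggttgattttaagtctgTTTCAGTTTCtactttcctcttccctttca
Ifit3b: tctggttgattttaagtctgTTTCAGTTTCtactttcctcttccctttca
Rsad2: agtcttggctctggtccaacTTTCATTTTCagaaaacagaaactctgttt
Stat2: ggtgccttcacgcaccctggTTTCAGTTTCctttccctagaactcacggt
Ddx58: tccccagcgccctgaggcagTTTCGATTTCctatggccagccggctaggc
Eif2ak2: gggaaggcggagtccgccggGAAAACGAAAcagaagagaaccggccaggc
These lie in the windows chr4:156200769-156201068 (minus strand) for Isg15, chr19:34640639-34640938 (plus) for Ifit1, chr19:34583279-34583578 (plus) for Ifit3 and chr19:34607707-34608006 (plus) for Ifit3b. The others are chr12:26456403-26456702 (minus) for Rsad2, chr10:128270248-128270547 (plus) for Stat2, chr4:40239776-40240075 (minus) for Ddx58 and chr17:78882523-78882822 (minus) for Eif2ak2. The stretches of Ifit3 and Ifit3b were letter for letter the same, as these genes are near-identical neighbours.

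Both kinds of core occurred among the interferon-gamma genes, but only Gbp7 and Igtp held both. An ISRE core of each of 4 GTPase genes is given first, in capitals, in Irgm1 the last of 2.
Gbp2: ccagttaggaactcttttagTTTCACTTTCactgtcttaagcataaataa
Gbp7: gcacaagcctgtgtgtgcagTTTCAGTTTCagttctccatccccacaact
Igtp: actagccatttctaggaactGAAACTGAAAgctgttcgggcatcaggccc
Irgm1: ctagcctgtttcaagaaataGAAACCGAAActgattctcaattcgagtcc
A GAS core each of Irf1, Gbp7 and Igtp follows, again in capitals, in Gbp7 the last of 2.
Irf1: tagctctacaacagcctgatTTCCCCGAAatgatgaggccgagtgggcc
Gbp7: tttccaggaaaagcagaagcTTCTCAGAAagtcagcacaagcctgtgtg
Igtp: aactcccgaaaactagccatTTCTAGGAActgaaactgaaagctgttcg
The windows are chr3:142620413-142620712 (plus) for Gbp2, chr3:142530086-142530385 (plus) for Gbp7, chr11:58199306-58199605 (plus) for Igtp, chr11:48871371-48871670 (minus) for Irgm1 and chr11:53769764-53770063 (plus) for Irf1. In Igtp the core of each kind lies within 45 bases of the start, the GAS at 45 and the ISRE at 34 bases before it. Irf1, known as a textbook GAS gene, had a GAS core 90 bases before its start and no ISRE core. No core of either kind was found in the windows of 12 of the 35 genes: Cgas, Dtx3l, Ifi44, Irf7, Irf9, Oasl1, Oasl2, Psmb9, Psmb10, Sp100, Trim25 and Xaf1.

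Total counts ranged from 15108793 to 19702638 per library. Levels are counts per 1000000 (CPM) on the effective library size, and differences are log2 fold changes ± SE from a single edgeR quasi-likelihood model of all 8 libraries, with p-values adjusted by the Benjamini-Hochberg method over the 17440 genes tested and called below 0.05. Of the 46 genes 45 passed the filter on low counts. Oas3 did not, with at most 0.611 CPM in a library, and is left out of the counts of called genes. For some genes it is also said that the libraries of 2 groups did not overlap. With 2 libraries a group this can arise by spread alone, and its share over all genes was not counted. Aqp2, Hsd11b2 and other principal cell markers of the collecting duct summed to between 1035 and 6077 CPM per library, but proximal tubule markers summed to 11869 and 14254 CPM in the vehicle-treated WT libraries and to 44.7 and 61.4 CPM in the vehicle-treated ADPKD libraries. The 8 libraries thus differed in these markers, and in bulk RNA fewer cells of a type and less RNA per cell cannot be told apart. Inhibitor-treated WT replicate 2 was the only library with Xist in quantity (17688 counts) and had 0 counts of Ddx3y, while replicate 1 of that group had 8 counts of Xist and 1776 of Ddx3y.

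With vehicle, most interferon-stimulated genes were lower in ADPKD than in WT cells. Of 45 genes tested 34 fell, 3 rose and 8 were not called, with a median log2 fold change of -1.61. Over all genes tested 56.4% were called, 27.6% lower and 28.8% higher, with a median of 0.05. All 46 genes together summed to 2105 and 1939 CPM in the 2 vehicle-treated WT libraries and to 631 and 664 CPM in the 2 vehicle-treated ADPKD libraries. The type I class had 26 of 35 genes lower and 3 higher (median -1.41), and the interferon-gamma class 8 of 10 lower and 0 higher (median -2.62). The genes that rose were Isg20, Oasl1 and Cgas.

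**Figure D1:**
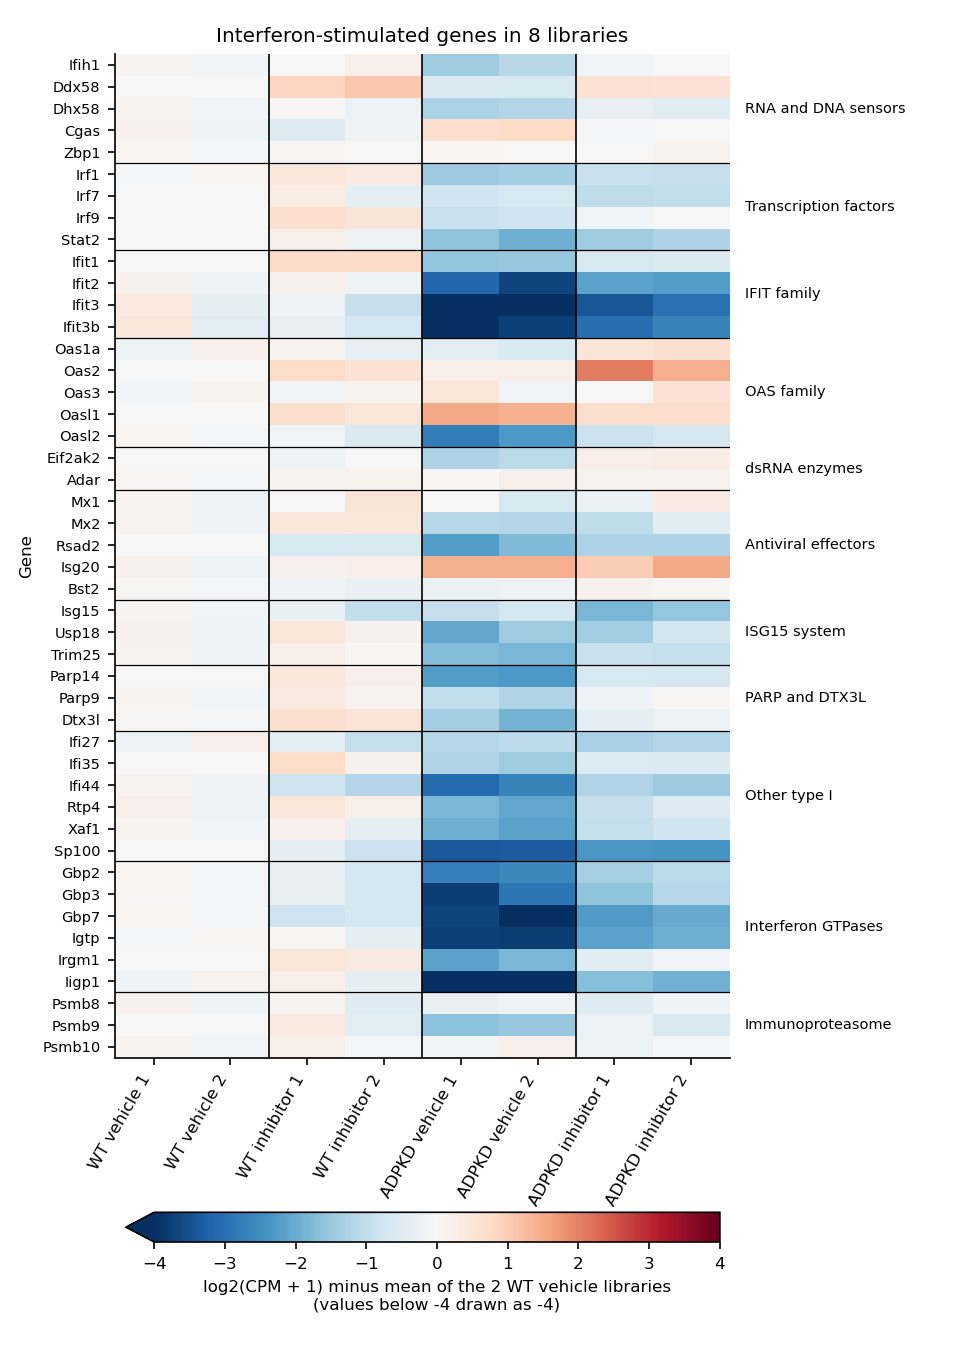
Level of each of the 46 genes (rows, grouped by role) in each of the 8 libraries (columns), as log2(CPM + 1) minus the mean of the 2 vehicle-treated WT libraries; blue is lower, red is higher, and values below -4 are drawn as -4. Most rows are blue in the vehicle-treated ADPKD columns and paler in the inhibitor-treated ADPKD columns, with Oasl1 and Isg20 red in both.

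Among the transcription factors all 4 fell with the ADPKD genotype. Irf1, a GAS-driven activator of many interferon-gamma genes, stood at 62.7 and 69.6 CPM in vehicle-treated WT libraries and at 23.4 and 25.3 CPM in vehicle-treated ADPKD libraries, a log2 fold change of -1.44 ± 0.12 (adjusted p = 3.7e-07). Stat2, which gives the type I complex its activation domain, went from 72.6 and 72.5 to 22.9 and 17.97 CPM (-1.83 ± 0.17, adjusted p = 2.0e-06). In both genes each ADPKD library was below each WT library. Irf9, the DNA-binding part of the same complex, went from 44.7 and 43.9 to 23.4 and 25.2 CPM (-0.86 ± 0.12, adjusted p = 5.0e-05). Irf7, which amplifies interferon-alpha production, went from 30.7 and 30.4 to 17.3 and 19.4 CPM (-0.74 ± 0.20, adjusted p = 0.0067).

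The sensors were divided. Ifih1, which encodes the RNA sensor MDA5, went from 33.6 and 29.1 to 11.1 and 14.1 CPM (-1.32 ± 0.16, adjusted p = 1.4e-05), and Ddx58, which encodes RIG-I, from 61.7 and 64.1 to 41.6 and 40.9 CPM (-0.61 ± 0.11, adjusted p = 3.0e-04). Dhx58, the related helicase LGP2, fell by 1.61 on the log2 scale. Zbp1, a sensor of Z-form nucleic acid, held between 1.36 and 1.76 CPM in all 8 libraries and was not called in any comparison. Cgas, the cytosolic DNA sensor, was higher, at 3.11 and 3.47 CPM in ADPKD libraries against 1.89 and 1.30 CPM in WT libraries (1.03 ± 0.40, adjusted p = 0.042). The call of Cgas was lost in 8 of 11 alternatives, among them the removal of either library of either genotype, with adjusted p from 0.023 to 0.26.

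The IFIT genes, whose products bind viral RNA and block its translation, included the gene with the largest fall, Ifit3. Ifit3 stood at 142 and 83.2 CPM in WT libraries and at 3.06 and 2.88 CPM in ADPKD libraries (-5.24 ± 0.42, adjusted p = 4.6e-05). Ifit1 went from 20.5 and 19.96 to 6.17 and 6.35 CPM (-1.69 ± 0.15, adjusted p = 9.6e-07). Ifit2 was at -3.96 ± 0.26 and Ifit3b at -4.91 ± 0.39, both called. Ifit3 shares 51.2% of its 50-base words with other genes, chiefly Ifit3b, so the split of reads between that pair is uncertain. These 4 genes lie beside each other on chromosome 19, from Ifit2 at chr19:34550694-34576419 to Ifit1 at chr19:34640871-34650009 on GRCm38.

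The OAS family, whose enzymes make an oligoadenylate messenger that activates RNase L, did not move as a block. Oasl2 went from 42.1 and 37.03 to 4.98 and 7.22 CPM (-2.70 ± 0.21, adjusted p = 3.0e-07). Oasl1, its neighbour on chromosome 5 and a reported brake on Irf7 translation, went the other way, from 24.1 and 23.2 to 69.9 and 65.3 CPM (1.51 ± 0.12, adjusted p = 2.5e-07). The 2 genes thus moved in opposite directions with no overlap between the genotypes in either. Oas1a and Oas2 were not called, at -0.67 ± 0.29 (adjusted p = 0.065) and 0.41 ± 0.38 (adjusted p = 0.38). Oas1a passed without WT vehicle replicate 1 (-0.92), and 57.6% of the words of Oas1a are shared with other genes, chiefly Oas1g.

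**Figure D2:**
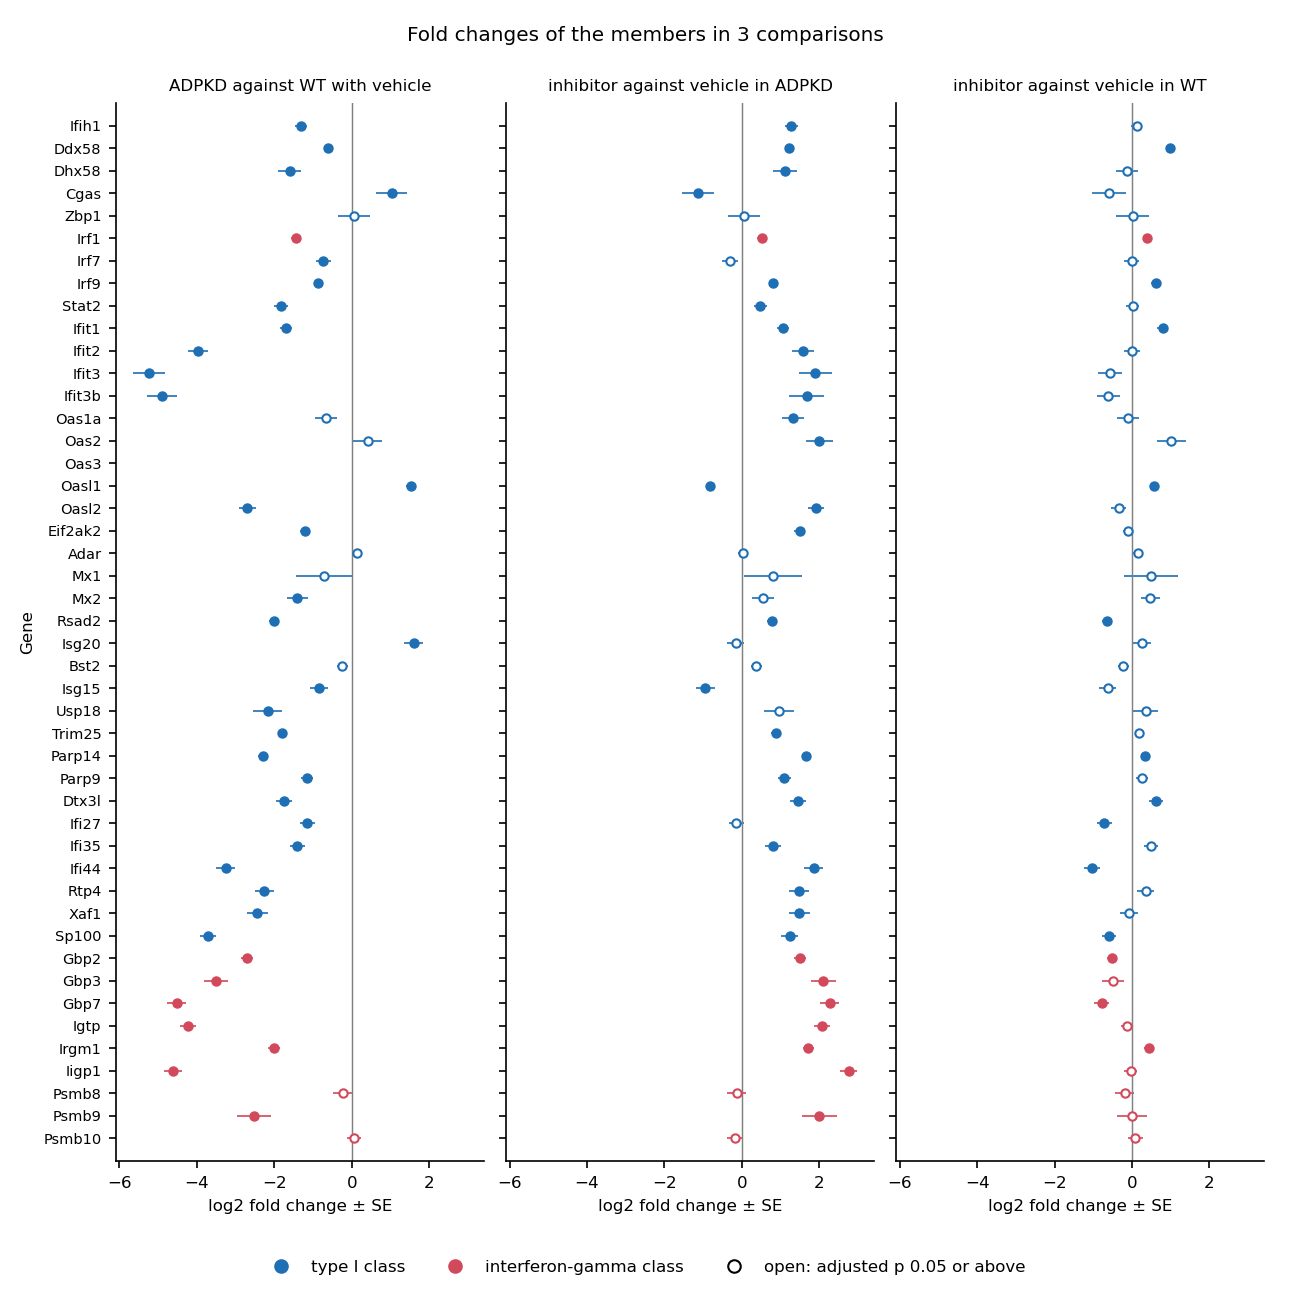
Log2 fold change (x axis, bars are ± SE) of each gene (y axis) for genotype with vehicle, inhibitor in ADPKD cells and inhibitor in WT cells; blue is the type I class, red the interferon-gamma class, and filled points have an adjusted p below 0.05. Filled points lie mostly left of 0 in the left panel, mostly right of 0 in the middle panel and close to 0 on both sides in the right panel.

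Of the double-stranded RNA enzymes, Eif2ak2, which encodes the translation-blocking kinase PKR, went from 33.9 and 34.9 to 14.1 and 15.7 CPM (-1.21 ± 0.14, adjusted p = 7.7e-06). Adar, an RNA-editing enzyme made from an interferon-driven and a constitutive promoter, held between 42.9 and 51.5 CPM in all 8 libraries and was not called in any comparison. Among the antiviral effectors Rsad2, which encodes viperin, went from 201 and 197 to 41.8 and 57.7 CPM (-2.002 ± 0.13, adjusted p = 4.7e-08). Bst2, the virus tether tetherin, stood at 23.3 and 22.1 CPM in WT and at 18.6 and 19.6 CPM in ADPKD libraries (-0.25 ± 0.14, adjusted p = 0.15). It passed as lower once a GC content (-0.34) or transcript length trend (-0.45) was removed, with adjusted p from 0.016 to 0.38 over 11 alternatives. Isg20, an RNA exonuclease, was higher, at 14.6 and 15.0 against 5.58 and 4.19 CPM (1.59 ± 0.24, adjusted p = 7.9e-05). Mx2 fell by 1.41 on the log2 scale, and Mx1 was at most 1.71 CPM in a library.

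The ISG15 system attaches a ubiquitin-like protein to others. Isg15 itself went from 31.0 and 26.5 to 14.8 and 17.0 CPM (-0.85 ± 0.22, adjusted p = 0.0062), and Trim25, a ligase that also activates RIG-I, from 218 and 182 to 59.7 and 55.3 CPM (-1.80 ± 0.12, adjusted p = 3.7e-08). Usp18, which removes ISG15 and damps the type I receptor, fell by 2.18 on the log2 scale. All 3 were lower with no overlap between the genotypes. The ADP-ribosylation genes fell as well. Parp14 went from 129 and 125 to 26.4 and 25.1 CPM (-2.31 ± 0.11, adjusted p = 2.5e-09), and Parp9 from 34.7 and 29.4 to 15.5 and 13.3 CPM (-1.15 ± 0.16, adjusted p = 3.5e-05). Dtx3l, the ubiquitin ligase partner of PARP9, fell by 1.75 on the log2 scale. Parp9 (chr16:35938470-35972605) and Dtx3l (chr16:35926511-35939151) overlap in their exons on opposite strands, and without a stated strand setting reads in the overlap cannot be assigned to either.

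All 6 other type I genes fell, from -1.15 (Ifi27) to -3.72 (Sp100). Ifi27, a mitochondrial protein gene, went from 32.7 and 44.2 to 16.9 and 17.9 CPM (-1.15 ± 0.19, adjusted p = 2.2e-04). Ifi35, a partner of the protein NMI, went from 23.4 and 22.9 to 9.39 and 8.03 CPM (-1.41 ± 0.19, adjusted p = 4.2e-05). No ADPKD library reached the lower WT library in either gene.

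All 6 interferon-gamma GTPases fell, with a median of -3.87. Irgm1, which guards the host's own membranes from the other GTPases, went from 127 and 125 to 27.6 and 35.0 CPM (-2.01 ± 0.15, adjusted p = 1.8e-07), the smallest fall of the 6. Gbp2, a guanylate-binding protein that coats bacteria and parasite vacuoles, went from 161 and 142 to 22.1 and 24.3 CPM (-2.71 ± 0.15, adjusted p = 9.4e-09). Iigp1 showed the largest fall, from 91.4 and 112 to 4.15 and 4.13 CPM (-4.61 ± 0.23, adjusted p = 2.3e-08). Gbp3 (-3.51), Gbp7 (-4.53) and Igtp (-4.22) lay between these. Igtp overlaps Irgm2 on the same strand, and 12.3% of its 50-base words are shared with other genes, as are 12.8% of those of Gbp7.

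The immunoproteasome subunits, which replace the constitutive catalytic subunits under interferon-gamma, did not move together. Psmb9 went from 3.93 and 4.08 to 0.623 and 0.760 CPM (-2.52 ± 0.44, adjusted p = 2.8e-04). Its exons overlap those of Tap1 on the opposite strand, and without a stated strand setting reads in the overlap cannot be assigned to either. Psmb8 stood at 17.4 and 13.2 CPM in WT and at 12.2 and 13.8 CPM in ADPKD libraries (-0.24 ± 0.24, adjusted p = 0.43). Psmb10 stood at 17.8 and 15.5 against 15.3 and 19.2 CPM (0.05 ± 0.18, adjusted p = 0.84), and the genotypes overlapped in both. The constitutive subunits Psmb5, Psmb6 and Psmb7 ranged from 72.2 to 96.9 CPM over the same 4 libraries and were not called (adjusted p from 0.31 to 0.75). The lower median of the interferon-gamma class therefore came from its GTPases, since its other 4 genes ranged from -2.52 to 0.05. With the 9 genes known to answer both interferons counted in the interferon-gamma class (Parp14, Parp9, Dtx3l, Sp100, Irf9, Stat2, Ifi35, Xaf1 and Zbp1), the medians were -2.01 for that class and -1.26 for the remaining 26 type I genes.

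**Figure D3:**
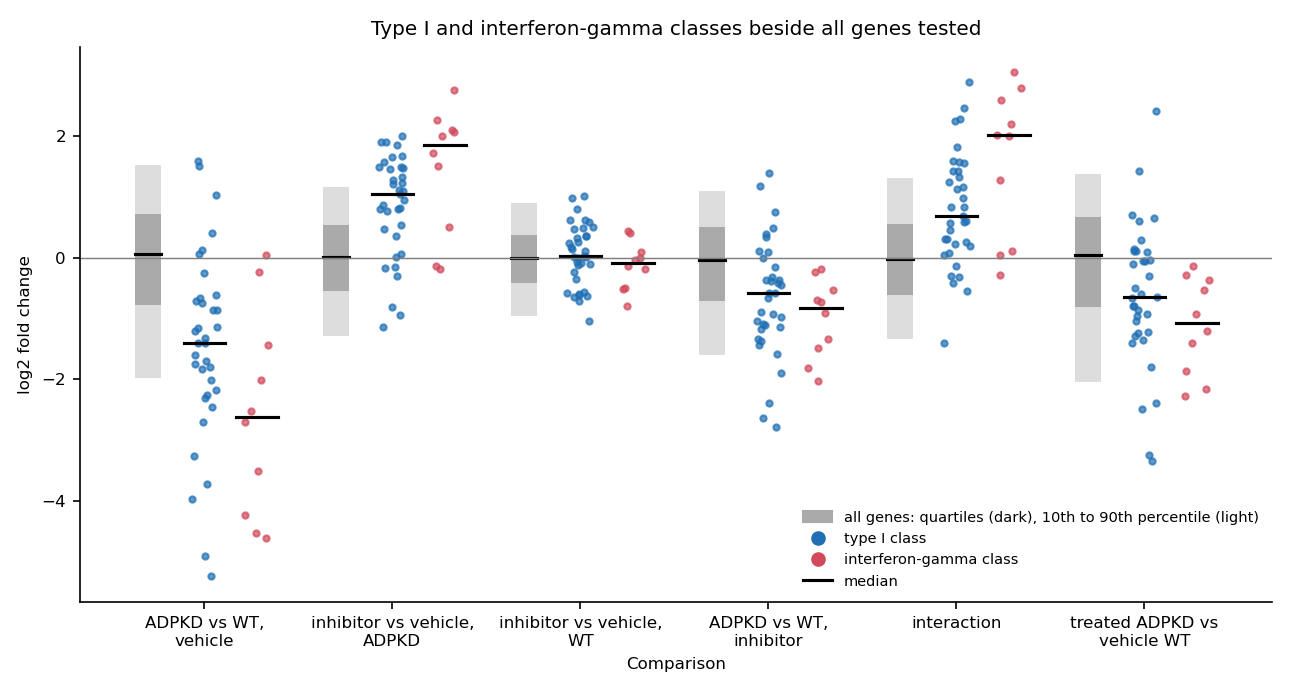
Log2 fold change (y axis) of each type I gene (blue) and interferon-gamma gene (red) in the 6 comparisons (x axis), with the class medians as black bars; grey boxes give the quartiles (dark) and the 10th to 90th percentiles (light) of all 17440 genes tested. The interferon-gamma median is the lower of the class medians for genotype with vehicle (-2.62 against -1.41) and the higher for the inhibitor in ADPKD cells (1.86 against 1.05).

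Cell type markers differed between the same libraries. Proximal tubule markers fell in 10 of 10 genes, thick limb and distal tubule markers in 6 of 6 (from between 8161 and 8402 summed CPM to between 380 and 385) and intercalated cell markers in 7 of 7 (698 to 734 against 141 to 164). Macrophage markers, among them Cd68, Csf1r and Lyz2, rose in 8 of 11 genes, from 85.8 and 118 to 253 and 313 summed CPM. Stromal markers rose in 5 of 6, from 118 and 156 to 317 and 554 summed CPM. Markers of T and NK cells, which make interferon-gamma, summed to between 1.25 and 3.42 CPM in every library with 3 to 6 of the 10 at 0, and those of B cells and plasmacytoid dendritic cells to between 1.43 and 3.94 CPM with up to 3 of the 6 at 0. The part of this shift in the interferon-stimulated genes was not tested.

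The inhibitor raised most of the set in ADPKD cells. Of the 45 genes 31 rose, 3 fell and 11 were not called, with a median of 1.11. Over all genes tested 41.4% were called, 22.3% higher and 19.1% lower, with a median of 0.02. The genes that fell were Oasl1, Isg15 and Cgas, and without ADPKD inhibitor replicate 1 only 1 gene was called lower. The summed level of the set went from 631 and 664 CPM to 1120 and 1194 CPM. The type I class had 23 of 35 higher and 3 lower (median 1.05), and the interferon-gamma class 8 of 10 higher and 0 lower (median 1.86, or 1.45 with the genes of both interferons included). The vehicle-treated ADPKD libraries also stand in the genotype comparison above. A level that is low in them lowers one difference and raises the other, so the differences are given side by side and not related to each other.

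Among the transcription factors Irf1 went from 23.4 and 25.3 to 35.1 and 34.3 CPM with the inhibitor (0.51 ± 0.12, adjusted p = 0.0043), and Irf9 from 23.4 and 25.2 to 40.7 and 44.9 CPM (0.81 ± 0.12, adjusted p = 2.2e-04). Irf7 was not called, at 17.3 and 19.4 against 14.6 and 15.1 CPM (-0.31 ± 0.20, adjusted p = 0.25). Treated libraries were thus above vehicle libraries in Irf1 and Irf9 but not in Irf7. Stat2 went from 22.9 and 17.97 to 26.4 and 30.5 CPM (0.48 ± 0.17, adjusted p = 0.044). The call of Stat2 was lost on leaving out ADPKD vehicle replicate 2 (0.33), ADPKD inhibitor replicate 1 (0.59) or ADPKD inhibitor replicate 2 (0.38) and on removing a transcript length trend (0.36), with adjusted p from 0.0024 to 0.23 over 11 alternatives.

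**Figure D4:**
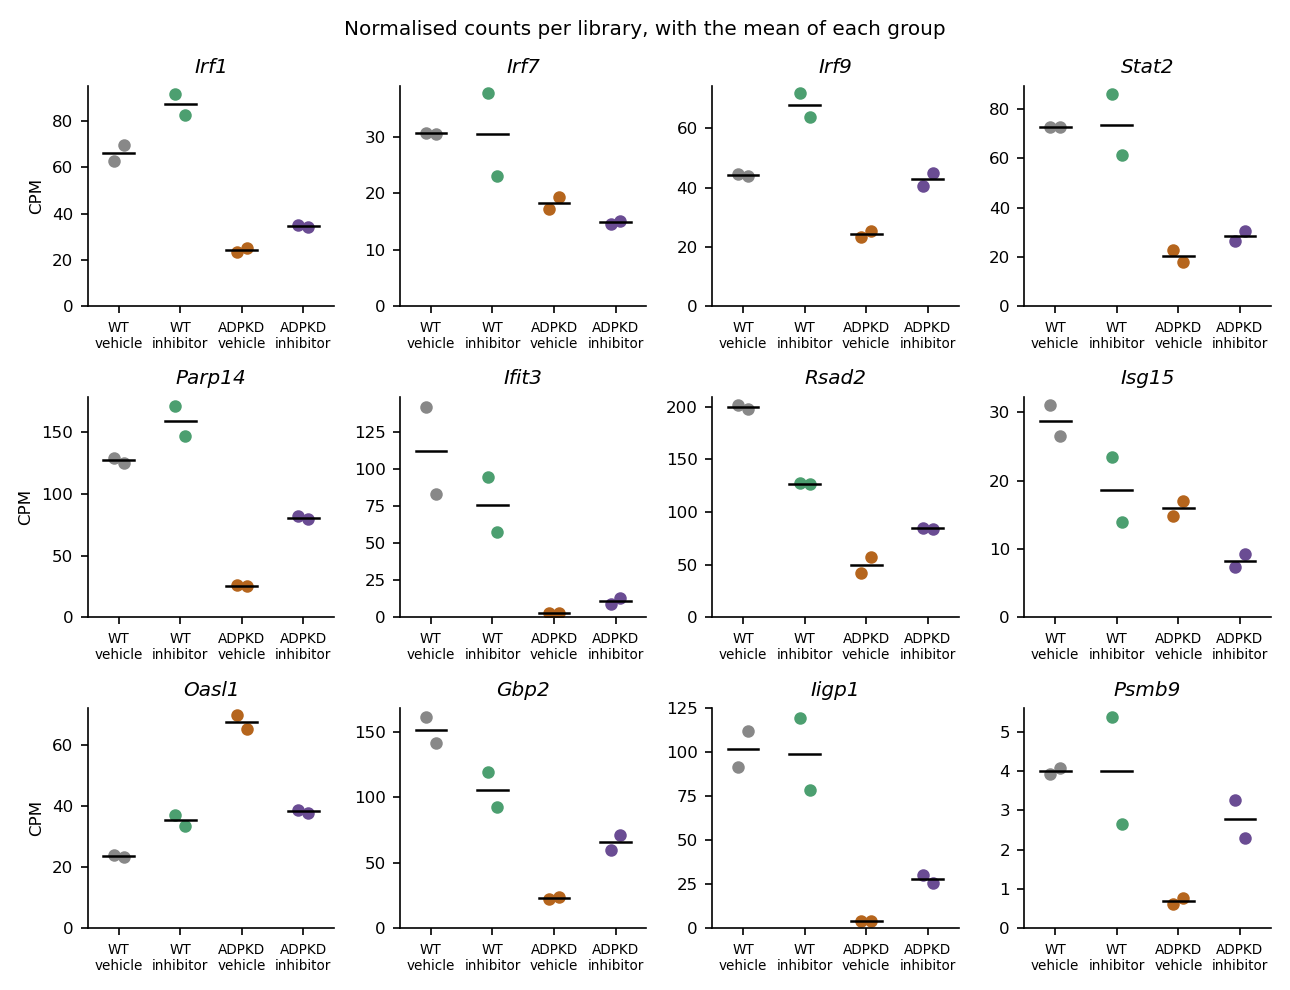
CPM (y axis, from 0) of 12 genes in the 2 libraries of each group (points) with the group mean (bar). In the inhibitor-treated ADPKD libraries Gbp2 (59.9 and 71.3 CPM) and Iigp1 (30.3 and 25.8 CPM) lie between the vehicle-treated ADPKD and the WT libraries, Isg15 (7.29 and 9.23 CPM) lies below all other libraries, and Oasl1 (38.7 and 37.9 CPM) lies below the vehicle-treated ADPKD libraries.

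Of the sensors, Ifih1 went from 11.1 and 14.1 to 29.2 and 31.8 CPM (1.27 ± 0.16, adjusted p = 6.3e-05) and Ddx58 from 41.6 and 40.9 to 96.7 and 93.5 CPM (1.21 ± 0.11, adjusted p = 5.4e-06). Dhx58 rose by 1.11 on the log2 scale, a call lost without ADPKD inhibitor replicate 1 (adjusted p from 0.0040 to 0.071 over the alternatives). Cgas went the other way, from 3.11 and 3.47 to 1.43 and 1.56 CPM (-1.13 ± 0.41, adjusted p = 0.041), and its call was lost in 7 of 11 alternatives, each removal of 1 library included (adjusted p from 0.018 to 0.18). Treated ADPKD libraries thus had more of the RNA helicases and, by a fragile call, less of the DNA sensor.

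All 4 IFIT genes rose. Ifit3 went from 3.06 and 2.88 to 9.31 and 12.8 CPM (1.89 ± 0.43, adjusted p = 0.013) and Ifit1 from 6.17 and 6.35 to 12.8 and 13.2 CPM (1.05 ± 0.16, adjusted p = 2.1e-04). Ifit2 rose by 1.58 and Ifit3b by 1.67 on the log2 scale. Treated libraries were above vehicle libraries in each of these genes, yet for Ifit3 all remained far below the 57.4 to 142 CPM of the WT libraries. The call of Ifit3 was lost without ADPKD vehicle replicate 1 (1.94), ADPKD vehicle replicate 2 (1.87) or ADPKD inhibitor replicate 2 (1.66), with adjusted p from 8.5e-05 to 0.099 over the alternatives, and that of Ifit3b without ADPKD vehicle replicate 1 (1.37) or ADPKD inhibitor replicate 2 (1.44), with adjusted p from 2.0e-07 to 0.11.

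In the OAS family Oasl2 went from 4.98 and 7.22 to 21.2 and 24.5 CPM (1.91 ± 0.21, adjusted p = 2.9e-05). Oas1a and Oas2, which were not called between the genotypes, rose by 1.32 ± 0.29 (adjusted p = 0.0028) and 2.00 ± 0.35 (adjusted p = 6.0e-04). Oas2 stood at 1.76 and 1.68 CPM with vehicle and at 8.53 and 5.29 CPM with the inhibitor, above all 4 WT libraries (1.29 to 2.85 CPM). Oasl1 fell from 69.9 and 65.3 to 38.7 and 37.9 CPM (-0.82 ± 0.12, adjusted p = 1.6e-04). Oasl1 thus moved opposite to Oasl2 with the inhibitor, and the promoter windows of both genes held neither core.

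Eif2ak2 went from 14.1 and 15.7 to 41.1 and 42.8 CPM (1.49 ± 0.14, adjusted p = 7.3e-06) and Rsad2 from 41.8 and 57.7 to 84.9 and 84.3 CPM (0.77 ± 0.13, adjusted p = 5.2e-04). The treated libraries of Eif2ak2 were above every other library, while those of Rsad2 stayed below the WT libraries (126 to 201 CPM). Bst2 stood at 25.6 and 23.6 CPM with the inhibitor (0.36 ± 0.14, adjusted p = 0.058), and it passed once a GC content or transcript length trend was removed (0.64 and 0.66). Mx1, Mx2 and Isg20 were not called.

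In WT cells Isg15 went from 31.0 and 26.5 to 23.4 and 13.9 CPM with the inhibitor, which was not called (-0.63 ± 0.22, adjusted p = 0.061). The inhibitor effect on Isg15 was not called different between the genotypes (-0.32 ± 0.33, adjusted p = 0.52). In ADPKD cells Isg15 fell again with the inhibitor, from 14.8 and 17.0 to 7.29 and 9.23 CPM (-0.95 ± 0.24, adjusted p = 0.0077), so that it was lower with the ADPKD genotype and lower still with treatment. That call was lost without ADPKD inhibitor replicate 1 (-0.77) and after removal of a length trend (-0.64), with adjusted p from 2.7e-05 to 0.090 over the alternatives. The other members of its system did not follow it: Trim25 went from 59.7 and 55.3 to 107 and 103 CPM (0.87 ± 0.11, adjusted p = 8.1e-05), and Usp18 was at 0.96 ± 0.39 (adjusted p = 0.065), with adjusted p from 0.016 to 0.48 over 11 alternatives. Usp18 passed in 5 of them: without ADPKD vehicle replicate 2 (1.55) or ADPKD inhibitor replicate 1 (1.34), with no filter on low counts (0.98), and after removal of a GC content (1.04) or length trend (1.06). With other libraries left out it went as low as 0.48. All 3 ADP-ribosylation genes rose, Parp14 from 26.4 and 25.1 to 81.8 and 79.7 CPM (1.65 ± 0.11, adjusted p = 6.8e-07) and Parp9 from 15.5 and 13.3 to 28.6 and 33.1 CPM (1.10 ± 0.16, adjusted p = 1.5e-04). Dtx3l rose by 1.45 on the log2 scale. Of the other type I genes 5 of 6 rose, between 0.81 (Ifi35, to 15.5 and 15.0 CPM) and 1.85 (Ifi44), and Ifi27 was not called at 15.0 and 16.4 CPM.

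All 6 interferon-gamma GTPases rose, with a median of 2.09. Gbp2 went from 22.1 and 24.3 to 59.9 and 71.3 CPM (1.5 ± 0.14, adjusted p = 9.9e-06), Irgm1 from 27.6 and 35.0 to 88.9 and 117 CPM (1.72 ± 0.15, adjusted p = 5.3e-06) and Iigp1 from 4.15 and 4.13 to 30.3 and 25.8 CPM (2.76 ± 0.22, adjusted p = 8.2e-06). Gbp3, Gbp7 and Igtp rose by 2.104, 2.26 and 2.07 on the log2 scale. In all 6 the treated libraries were above the vehicle libraries, a separation that was not counted over all genes. Psmb9 went from 0.623 and 0.760 to 3.25 and 2.31 CPM (2.00 ± 0.45, adjusted p = 0.0034). Psmb8 (10.3 and 13.5 CPM with the inhibitor) and Psmb10 (14.4 and 15.7 CPM) were not called and overlapped with the vehicle libraries, and of the constitutive subunits Psmb5 (-0.81) and Psmb7 (-0.67) fell while Psmb6 was not called.

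Other things moved with the treatment in ADPKD cells. Endothelial markers fell in 10 of 10 genes, from between 1105 and 1376 to between 312 and 390 summed CPM. Proximal tubule markers rose in 9 of 10 (to between 365 and 392 summed CPM) and intercalated cell markers in 6 of 7 (to between 473 and 602). Macrophage markers were called higher in 2 and lower in 1 of 11, at 199.99 and 265 summed CPM. T and NK cell markers summed to between 1.497 and 2.65 CPM. The fold change over all genes also ran with GC content (Spearman correlation -0.35 across 17252 genes, which are not independent). The median GC content was 49.4% in the set and 49.6% over all genes, but within the set it ran from 39.3% (Iigp1) to 57.4% (Isg20). The 3 genes that fell, Oasl1, Isg15 and Cgas, had 56.3%, 52.8% and 45.9%. The part of GC content and of the marker shifts in the interferon-stimulated genes was not tested.

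**Figure D5:**
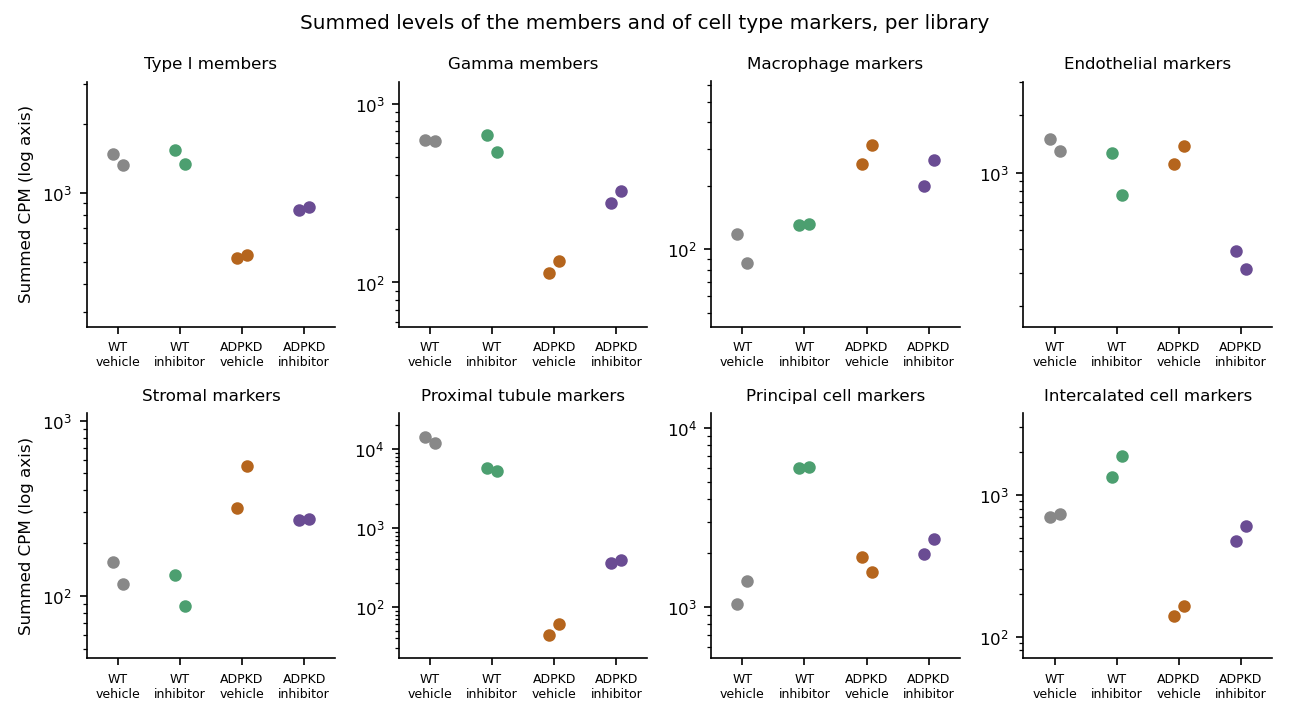
Summed CPM (y axes, log scale) of the type I genes, the interferon-gamma genes and 6 lists of cell type markers in each library (points), by group. The summed type I and interferon-gamma levels are lowest in the vehicle-treated ADPKD libraries, whereas macrophage and stromal markers are higher in both ADPKD groups and endothelial markers are lowest in the inhibitor-treated ADPKD libraries.

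In WT cells the inhibitor changed fewer of these genes and gave no common direction. Of the 45 genes 8 rose, 6 fell and 31 were not called, with a median of 0.01. Over all genes tested 25.5% were called, 13.9% higher and 11.6% lower, so the share of the set that was called was near the background. The summed level of the set was 2198 and 1869 CPM with the inhibitor, which overlaps the vehicle libraries. The genes that rose were Ddx58, Irf1, Irf9, Ifit1, Oasl1, Parp14, Dtx3l and Irgm1. Those that fell were Rsad2, Ifi27, Ifi44, Sp100, Gbp2 and Gbp7.

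Ddx58 went from 61.7 and 64.1 to 115 and 133 CPM (0.98 ± 0.11, adjusted p = 2.4e-05), Irf9 from 44.7 and 43.9 to 71.9 and 63.8 CPM (0.61 ± 0.12, adjusted p = 0.0021) and Ifit1 from 20.5 and 19.96 to 35.1 and 35.2 CPM (0.79 ± 0.14, adjusted p = 0.0012). Oasl1 went from 24.1 and 23.2 to 37.04 and 33.7 CPM (0.58 ± 0.12, adjusted p = 0.0032). These 4 genes were higher in both treated libraries than in both vehicle libraries. Rsad2 went from 201 and 197 to 127 and 126 CPM (-0.65 ± 0.13, adjusted p = 0.0021) and Ifi44 fell by 1.03 on the log2 scale. Irf1 stood at 91.6 and 82.6 CPM with the inhibitor (0.40 ± 0.11, adjusted p = 0.021), with adjusted p from 0.013 to 0.22 over 11 alternatives.

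The counts in WT cells depended on single libraries. Leaving out any library of the 2 groups kept the calls of Ddx58, Irf9, Ifit1, Oasl1, Rsad2 and Ifi44 and ended those of the other 8 genes in at least 1 case each. Without WT vehicle replicate 1 there were 4 genes higher and 3 lower, and the calls of Irf1 (0.32), Parp14 (0.34), Dtx3l (0.66), Irgm1 (0.45), Sp100 (-0.58), Gbp2 (-0.42) and Gbp7 (-0.72) were lost. Without WT vehicle replicate 2 there were 4 higher, and Irf1 (0.47), Parp14 (0.29), Irgm1 (0.41), Ifi27 (-0.49) and Sp100 (-0.62) were among those lost. Without WT inhibitor replicate 1 there were 4 higher, with Irf1 (0.32), Parp14 (0.21), Dtx3l (0.58) and Irgm1 (0.37) lost. Without WT inhibitor replicate 2 there were 3 lower, with Ifi27 (-0.48), Sp100 (-0.36), Gbp2 (-0.35) and Irgm1 (0.49) lost. DESeq2 called 5 genes higher. The members of this pair of libraries differed in sex and, in many genes, in level: Stat2 stood at 85.9 and 61.3 CPM, Isg15 at 23.4 and 13.9 CPM and Psmb9 at 5.37 and 2.66 CPM, in each case lower in replicate 2. Principal cell markers rose in 9 of 9 genes in the treated WT libraries, from between 1035 and 1393 to between 6026 and 6077 summed CPM, and proximal tubule markers fell in 7 of 10, to between 5255 and 5793 summed CPM. Macrophage markers rose in 8 of 11 genes (median 2.26), from between 85.8 and 118 to between 130.3 and 132 summed CPM. Intercalated cell markers rose in 5 of 7 genes, and markers of the thick limb and distal tubule fell in 5 of 6. The part of these shifts in the results for WT cells was not tested.

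With all 8 libraries, the response to the inhibitor was called different between the genotypes in the majority of the set. Some of these calls depended on single libraries, as given below. The interaction, the inhibitor effect in ADPKD minus that in WT cells, was called in 26 of 45 genes, 25 of them positive and 1 negative, with a median of 0.83. Over all genes tested 26.6% were called, 13.6% higher and 13% lower. The interaction uses the vehicle-treated ADPKD libraries too, so it is not separate from the comparisons above. Over all genes it also ran with GC content (Spearman correlation -0.34), and the part of GC content in these calls was not tested. The type I class had 18 of 35 positive and 1 negative (median 0.69) and the interferon-gamma class 7 of 10 positive (median 2.01). Gbp7 showed the largest difference (3.05 ± 0.31, adjusted p = 2.6e-05), followed by Ifi44 (2.88 ± 0.33, adjusted p = 6.0e-05) and Iigp1 (2.80 ± 0.29, adjusted p = 7.4e-05). Both Gbp7 and Ifi44 rose with the inhibitor in ADPKD cells and fell with it in WT cells, as did Gbp2, Rsad2 and Sp100. Oasl1 was the negative one (-1.40 ± 0.17, adjusted p = 9.5e-05), rising in WT and falling in ADPKD cells. The 4 transcription factors were not called, with differences from -0.30 (Irf7, adjusted p = 0.48) to 0.45 (Stat2, adjusted p = 0.18).

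With the inhibitor in both genotypes, ADPKD cells were still lower in 27 of 45 genes and higher in 4, with a median of -0.69. Over all genes tested 46.3% were called, 24.5% lower and 21.8% higher. This comparison shares no library with the vehicle comparison. All 27 genes lower with the inhibitor were among the 34 lower with vehicle, which is 79.4% of the latter, and over all genes the shared part was 71.3% of the inhibitor list and 63.3% of the vehicle list. As 34 of the 45 genes were lower with vehicle, against 27.6% of all genes, a large shared part follows in part from that count alone. The 7 genes lower with vehicle only were Dhx58, Eif2ak2, Ifi44, Ifih1, Oasl2, Parp9 and Psmb9. Of these, Ifih1 stood at 31.7 and 36.3 CPM in treated WT and at 29.2 and 31.8 CPM in treated ADPKD libraries, and Parp9 at 41.5 and 35.5 against 28.6 and 33.1 CPM. The genes that were higher were Oas1a, Oas2, Eif2ak2 and Isg20. The calls of Oas1a (0.76 ± 0.28, adjusted p = 0.043) and Eif2ak2 (0.38 ± 0.13, adjusted p = 0.033) were each lost on leaving out inhibitor-treated libraries and in DESeq2, and that of Oas2 (1.39 ± 0.34, adjusted p = 0.0044) without ADPKD inhibitor replicate 1 (1.01). The number of genes higher was 1 without ADPKD inhibitor replicate 1, 2 without ADPKD inhibitor replicate 2 and 2 in DESeq2.

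Inhibitor-treated ADPKD cells were then set against vehicle-treated WT cells. In this comparison 25 of 45 genes were lower, 4 higher and 16 not called, with a median of -0.66 in place of -1.61 for vehicle-treated ADPKD cells. Over all genes tested 55.3% were called, 26.7% lower and 28.6% higher. The type I class had 19 of 35 lower (median -0.64) and the interferon-gamma class 6 of 10 lower (median -1.07). Ifit3 (-3.35 ± 0.37, adjusted p = 2.6e-04), Ifit3b (-3.24) and Sp100 (-2.49) had the lowest fold changes, and Gbp7 (-2.27) and Igtp (-2.15) were the lowest GTPases. Irf9 (-0.05 ± 0.12, adjusted p = 0.74), Ifih1 (-0.04 ± 0.15, adjusted p = 0.84) and Parp9 (-0.05 ± 0.15, adjusted p = 0.78) had overlapping libraries in these 2 groups. Ddx58, Oas2, Oasl1 and Isg20 were the genes higher than in vehicle-treated WT cells. Leaving out 1 library ended the call of 6 of these 29 genes in at least 1 case (Ifi35, Mx2, Oasl2, Rtp4, Usp18 and Xaf1), with 19 to 25 genes lower. Ifi35 and Rtp4 also lost the call with all libraries, Ifi35 after removal of a GC content (-0.40) or transcript length trend (-0.38) and Rtp4 after removal of the length trend (-0.55). Usp18 moved to -0.85 without ADPKD inhibitor replicate 1.

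Levels per kilobase of the longest transcript give the order of the genes within a group. In vehicle-treated WT cells Ifit3 (64.4 CPM per kb), Gbp2 (60.2) and Rsad2 (47.6) led, and in inhibitor-treated WT cells Irgm1 (44.4), Ifit3 (43.6) and Gbp2 (42.1). In vehicle-treated ADPKD cells the leaders were Oasl1 (31.0 CPM per kb), Bst2 (24.1) and Isg15 (21.1), and in inhibitor-treated ADPKD cells Bst2 (31.1), Irgm1 (26.8) and Gbp2 (26.1). Ifit3, first in WT cells with vehicle, was not among the 8 leading genes of either ADPKD group. Neighbours in these orders are close, and the libraries of Ifit3 alone spanned 83.2 to 142 CPM in vehicle-treated WT cells.

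The pathway upstream of these genes was largely expressed, except for its ligands. Of 12 interferon ligand genes 0 passed the filter, and 4 had 0 counts in all 8 libraries, where a total of 0 over a group allows up to 3 counts by counting error alone. The largest count in a library was 16, of Ifnb1 in inhibitor-treated ADPKD replicate 2, and Ifng had at most 1. Receptor genes did not follow the set. Ifnar1 stood at 61.8 and 69.2 CPM in vehicle-treated WT and at 88.6 and 109 CPM in vehicle-treated ADPKD libraries (0.60 ± 0.11, adjusted p = 6.0e-04), and Ifngr2 at 51.8 and 52.6 against 78.9 and 81.2 CPM (0.62 ± 0.11, adjusted p = 2.6e-04). Of 6 receptor genes 5 rose with the ADPKD genotype and 0 fell, Ifnar2 being the gene not called. Over all genes tested 28.8% were higher and 27.6% lower with the genotype. The inhibitor raised 3 of the 6 in ADPKD cells and the same number in WT cells, with Ifnar1 at 165 and 167 CPM in treated ADPKD and at 175 and 179 CPM in treated WT libraries. Over all genes tested the inhibitor raised 22.3% in ADPKD cells and 13.9% in WT cells, and 6 genes are too few to set against these shares. Jak1 held between 378 and 452 CPM, while Jak2 went from 164 and 145 to 101 and 112 CPM with the ADPKD genotype and to 251 and 260 CPM with the inhibitor added (1.26 ± 0.10, adjusted p = 2.6e-06). The inhibitor raised Jak2 in WT cells as well (0.74). Of the 3 kinase and STAT genes tested here, 1 rose and 1 fell with the ADPKD genotype.

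Genes of the same responses outside the set, read in the same libraries, gave similar counts. Their lists were also chosen with earlier results of these data known. The genotype comparison with vehicle and the inhibitor comparison in ADPKD cells share the vehicle-treated ADPKD libraries. These counts are therefore no separate support for the results of the set. Over all genes tested 27.6% were lower and 28.8% higher with the genotype, and 22.3% higher and 19.1% lower with the inhibitor in ADPKD cells. Of 22 other type I genes 16 fell and 2 rose with the ADPKD genotype, and 16 rose and 0 fell with the inhibitor in ADPKD cells. Samd9l, the highest of them, went from 143 and 134 to 26.8 and 26.2 CPM with the genotype (-2.39 ± 0.12, adjusted p = 4.5e-09) and to 164 and 167 CPM with the inhibitor (2.64 ± 0.12, adjusted p = 7.6e-08). Of 20 other interferon-gamma genes tested 14 fell and 0 rose with the genotype, and 15 rose and 1 fell with the inhibitor in ADPKD cells. Tapbp, which loads peptides onto class I molecules, went from 137 and 132 to 108 and 108 CPM and then to 162 and 181 CPM. The gene that fell was Cxcl10, a chemokine, which stood at 83.9 and 99.5 CPM in vehicle-treated WT, 92.1 and 98.4 CPM in vehicle-treated ADPKD and 41.3 and 56.3 CPM in inhibitor-treated ADPKD libraries (-0.97 ± 0.14, adjusted p = 2.2e-04 for the inhibitor). In WT cells the inhibitor raised 6 and lowered 1 of the 22 type I genes, and raised 2 and lowered 4 of the 20 interferon-gamma genes. Over all genes tested 25.5% were called in WT cells, so these shares were near the background.

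Set against the promoter windows, the 17 genes with an ISRE core included 14 of 16 tested that were lower with the ADPKD genotype and 14 of 16 that were higher with the inhibitor in ADPKD cells. The 18 genes with a window but no ISRE core included 12 lower and 3 higher with the genotype, and 11 higher and 2 lower with the inhibitor. The medians were -1.91 with and -1.42 without the core for the genotype, and 1.41 with and 0.81 without it for the inhibitor. For the GAS core the counts were 6 of 11 lower with the genotype and 7 of 11 higher with the inhibitor, against 20 of 23 and 18 of 23 genes tested without it. Over all genes tested 27.6% were lower with the genotype and 22.3% higher with the inhibitor in ADPKD cells. Both comparisons use the vehicle-treated ADPKD libraries, so their medians are not separate observations. The counts by core describe the set and were not tested.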

How the data were processed

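The table deposited by the authors held raw read counts per gene for 55304 genes in 8 libraries. The submitters' processing notes name HISAT2 2.1.0, the build mm10, featureCounts 1.6.0 and DESeq2. Which annotation release and strand setting were used, and what was done with reads of several locations, is not given in the sources used here, so genes that overlap or share sequence may exchange reads. Per the labels' protocols RNA was selected with oligo-dT, and the protocol also speaks of whole kidney. The columns of the vehicle groups carry no treatment name and were matched to their samples by elimination.

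Counts were analysed in edgeR 4.0.16 (R 4.3.3). The filter of filterByExpr (count of at least 10, total of at least 15) passed 17440 genes. TMM factors scaled the libraries, and a robust quasi-likelihood model of the 4 groups was fitted with 4 residual degrees of freedom. Tests of 6 contrasts were two-sided, with Benjamini-Hochberg adjustment over all genes tested and a threshold of 0.05. Total counts of 15108793 to 19702638 per library mean that 1 CPM stands for about 15 to 20 counts in a library. Levels per group rest on 2 libraries. The set and its lists were chosen with earlier results of these data known, so the set has no p-value of its own and is described by counts and medians beside those of all genes. All 46 genes could be named; the 2 genes of each role with the highest mean CPM, the transcription factors, Isg15 and the immunoproteasome have their value in every library, and Iigp1, Cgas, Oas2 and Isg20 were added after their values were seen. Of the pathway lists, the ligands, the receptors and the most abundant genes could be named.

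Gene positions, length and GC content came from GENCODE M21 (GRCm38), and promoter windows from RefSeq on GRCm38.p6. Shared sequence was counted as words of 50 bases. Alternatives were RLE scaling, no filter, DESeq2 1.42.0, only the groups compared, the replicate block, removal of a GC or length trend by lowess (span 0.3), each library left out in turn, the 9 genes of both interferons in the other class, and another ISRE spacer. Plots were made in matplotlib 3.10.9 (Python 3.11.15).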

Additional observations from a re-analysis of the deposited data

Results flagged for a closer look

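In 26 of the 45 genes the effect of the inhibitor differed between the genotypes by the interaction test of edgeR's quasi-likelihood model (adjusted p below 0.05), and each is listed for that reason. Values are the log2 effect in ADPKD cells minus that in WT cells. Among the interferon-gamma genes Gbp7 stood at 3.05, Iigp1 at 2.8, Gbp3 at 2.59, Igtp at 2.2, Gbp2 at 2.02, Psmb9 at 2.0 and Irgm1 at 1.28. Among the type I genes Ifi44 stood at 2.88, Ifit3 at 2.46, Ifit3b at 2.28, Oasl2 at 2.25 and Sp100 at 1.82. Eif2ak2 was at 1.59, Ifit2 at 1.57, Xaf1 at 1.56, Oas1a at 1.43, Rsad2 at 1.42 and Parp14 at 1.33. Dhx58 was at 1.24, Ifih1 at 1.16, Rtp4 at 1.12, Parp9 and Dtx3l at 0.83 each, Trim25 at 0.69 and Bst2 at 0.59. Oasl1 alone was negative, at -1.4.

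Leaving out a library ended the call of 9 of these genes in at least 1 case: Bst2, Dhx58, Dtx3l, Ifit3, Ifit3b, Oas1a, Parp9, Psmb9 and Rtp4. Bst2 at 0.59 and Dhx58 at 1.24 lost it without either library of 3 groups and more, whereas Parp9 lost it without WT vehicle replicate 1 (0.72) or ADPKD inhibitor replicate 2 (0.74). Ifit3 lost it without ADPKD vehicle replicate 1 (2.51), ADPKD vehicle replicate 2 (2.44) or ADPKD inhibitor replicate 2 (2.23), and Ifit3b without ADPKD vehicle replicate 1 (1.98) or ADPKD inhibitor replicate 2 (2.05). Psmb9 lost it without WT vehicle replicate 1 (2.04), WT vehicle replicate 2 (1.99), ADPKD vehicle replicate 1 (1.87) or ADPKD inhibitor replicate 1 (1.75). The other 17 genes kept the call in each of the 8 cases. With all libraries, Bst2 (0.62, 0.59 and 0.65) and Dhx58 (1.27, 1.23 and 1.29) lost it with no filter on low counts, with the replicate block and in DESeq2. Dtx3l lost it after removal of a GC content (0.60) or transcript length trend (0.72), and the other 23 kept it in these settings. Groups of 2 libraries are too small for a test of single libraries that stand apart.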

How the results depend on the processing

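No called gene changed sign in any alternative. With vehicle, 36 of the 37 calls between the genotypes held in every alternative, the exception being Cgas. For the inhibitor in ADPKD cells 31 of 34 calls held in every alternative other than left-out libraries, which Cgas, Isg15 and Stat2 did not, and 28 of 34 with any library left out. With 2 libraries a group each left-out library leaves a group of 1, whose spread is taken from the other groups. With the genes of both interferons moved, the interferon-gamma medians were -2.01 for genotype with vehicle, 1.45 for the inhibitor in ADPKD cells, 1.28 for the interaction and -0.66 for treated ADPKD against vehicle-treated WT cells. DESeq2 gave 5 genes higher (8 in edgeR) for the inhibitor in WT cells and 2 (4 in edgeR) for genotype with inhibitor. With 1 library left out, genes lower with the inhibitor in ADPKD cells numbered 1 to 2 and their interferon-gamma median was 1.61 to 1.93. For the inhibitor in WT cells there were 4 to 8 higher and 3 to 7 lower with an interferon-gamma median of -0.48 to 0.18. For genotype with inhibitor there were 1 to 3 higher. The interaction medians were 1.74 to 2.35 for interferon-gamma and 0.66 to 0.96 for type I genes. Fitting only the groups compared gives no separate value for the interaction, which uses all 4.

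Some values that were not called changed sign. For genotype with vehicle, Psmb10 was at -0.12 with the GC trend removed, at -0.0313 with only the groups compared and at -0.15 to 0.20 with a library left out, and Zbp1 at -0.0224 with only the groups compared and at -0.0929 to 0.18 with a library left out. For the inhibitor in ADPKD cells, removal of the GC trend gave 0.27 for Isg20, 0.0106 for Ifi27, 0.0263 for Psmb8 and 0.16 for Psmb10. Removal of the length trend gave -0.17 for Adar, 0.0719 for Isg20 and 0.12 for Ifi27, and the fit of only the groups compared gave -0.0152 for Adar. With a library left out the ranges were -0.0576 to 0.11 for Adar, -0.34 to 0.0027 for Psmb10, -0.44 to 0.0931 for Isg20, -0.33 to 0.0673 for Psmb8 and -0.0514 to 0.19 for Zbp1.

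Libraries with the same replicate number did not deviate together: differences between replicate 1 and 2 of the groups correlated at -0.037 to 0.079 over 11199 genes. With the replicate block, 34 genes were lower and 2 higher between the genotypes with vehicle, 31 were higher and 2 lower with the inhibitor in ADPKD cells, and 23 had a positive interaction. Depth limits the genes with a mean below about 2 CPM over all libraries (Cgas, Mx1, Oas3 and Zbp1), for which these libraries could show large differences only. Other genes had means that low in the vehicle-treated ADPKD group, so the size of their fold changes is uncertain. They were Psmb9 (12 and 14 counts), Ifit3b (15 and 23), Gbp7 (41 and 23), Oas2, Usp18, Dhx58 and Ifit2.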
